A study of Mus musculus with 8 samples.

Results

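The hedgehog receptor and effector genes were 9 genes, *Ptch1*, *Smo*, *Boc*, *Cdon*, *Hhip*, *Sufu*, *Gli1*, *Gli2* and *Gli3*, out of 21490 genes with at least 1 accessible region in mouse spermatogonia. They were read through the ATAC-seq peaks whose list of assigned genes holds one of these symbols exactly, which gave 211 of 328733 peaks and, after overlapping peaks of different libraries were merged, 52 of 87144 regions. The set was selected on the fall of the *Ptch1* regions after retinoic acid (RA), so all values of *Ptch1* against 0 h are a description and carry no test.

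Hedgehog ligands bind PTCH1, a membrane receptor that holds the membrane protein SMO inactive until ligand arrives. BOC and CDON are co-receptors that help to present the ligand, and HHIP is a membrane protein that sequesters it. Active SMO releases the GLI transcription factors from their cytoplasmic partner SUFU, GLI2 acts mainly as an activator and GLI3 mainly as a repressor, and *Gli1*, *Ptch1* and *Hhip* are themselves classical targets of GLI proteins. In the testis, Desert hedgehog from Sertoli cells acts on Leydig and peritubular myoid cells, which carry PTCH1.

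Germ cells were sorted for eGFP from testes of PIWIL2-eGFP mice, in which the *Piwil2* promoter drives the reporter from prenatal germ cells to early spermatids. All mice received WIN 18,446, an inhibitor of RA synthesis, at 100 mg/kg on each of 7 days from 2 dpp. The 0 h mice were collected without RA, and the others 18, 48 or 120 h after 200 µg RA at 9 dpp. The study assigns the 4 timepoints in turn to undifferentiated, A1/A2, A3 and B spermatogonia. Each timepoint had 2 libraries, each from the testes of 1 mouse. The labels give a C57BL/6 x 129s4/SvJae background, whereas the methods name C57BL/6 and SJL. ATAC-seq marks open chromatin as DNA that a transposase can reach. The summit value used throughout is the number of extended tags at the highest point of a peak after the authors reduced all libraries to the same number of tags. Where no peak was called the table holds no value, and the lowest summit in any library was 24 or 25, so "no peak" is not a value of 0.

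The libraries held between 24643 and 72215 peaks, and both 0 h libraries (72215 and 69089) held more than any later one. All 8 germ cell markers (such as *Ddx4* and *Dazl*) had a peak within 1000 bp of the start in both 0 h libraries, and 7 had one in both libraries of each later timepoint. Of 22 markers of testicular somatic cells, the number with such a peak in both libraries was 10 before RA and 4, 5 and 3 at the later timepoints in turn. Their summed start peak values were 1079 and 1299 (0 h) against 206 to 522 later. A gene without a called start peak adds nothing to such a sum, so the sums also fall where peaks were no longer called. None of the 6 Leydig markers had a start peak in any library and none of the 5 endothelial and immune markers in both libraries of a timepoint, whereas the 5 peritubular myoid markers had 5, 2, 2 and 1, and the 6 Sertoli markers 5, 2, 3 and 2 at 0, 18, 48 and 120 h. Summed in the same way, start values of the 9 hedgehog genes were 1728 and 2163 (0 h), 517 to 830 at 18 and 48 h, and 1434 and 1027 (120 h), and those of the germ cell markers 2831 and 3352, 1063 to 1697, and 2265 and 1809. Of the germ cell sums at 0 h, *Piwil2*, whose promoter also drives the reporter, gave 1073 and 1009. Of the hedgehog sums, the *Sufu* start, also assigned to *Actr1a*, gave 637 and 764 (0 h) and 745 and 594 (120 h). The part of the somatic cells in the results below was not tested.

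The sequences of the *Ptch1* upstream regions are shown first, since this locus led to the choice of the set and 2 of its regions hold a consensus GLI site. The 9 letters GACCACCCA were searched on both strands in 300-bp windows around the highest summit of every region. They occurred in 296 of 87144 regions (0.34%) and in 2 of the 52 regions of the hedgehog genes, both of them at *Ptch1*. Sequences are from GRCm38.p6, minus strand, which is the strand of *Ptch1*, with the GLI letters or their complement in capitals. The first is chr13:63566251-63566550, around the summit of the region 0.9 kb upstream of the start. The second is a stretch of 30 bases, chr13:63573454-63573483, from the region 8.0 kb upstream. The third is chr13:63567819-63568118, from the region 2.4 kb upstream, the highest of the locus.

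Ptch1 0.9 kb upstream: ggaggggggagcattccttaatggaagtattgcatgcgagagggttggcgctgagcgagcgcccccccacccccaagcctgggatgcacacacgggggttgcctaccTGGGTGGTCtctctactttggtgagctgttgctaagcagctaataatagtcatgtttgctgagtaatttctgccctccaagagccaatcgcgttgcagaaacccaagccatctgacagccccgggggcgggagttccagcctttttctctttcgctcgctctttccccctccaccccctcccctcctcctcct
Ptch1 8.0 kb upstream: tggcgcggcaGACCACCCAcgccgagggcc
Ptch1 2.4 kb upstream: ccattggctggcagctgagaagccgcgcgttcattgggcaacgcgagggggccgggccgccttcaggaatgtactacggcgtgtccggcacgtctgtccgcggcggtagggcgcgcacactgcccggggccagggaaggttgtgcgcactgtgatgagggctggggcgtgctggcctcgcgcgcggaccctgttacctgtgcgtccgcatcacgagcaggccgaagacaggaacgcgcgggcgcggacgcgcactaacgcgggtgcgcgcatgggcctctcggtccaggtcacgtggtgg

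The site in the first sequence lay at chr13:63566435-63566443, 39 bp from the summit, inside an element that RefSeq annotates as a hedgehog-responsive *Ptch1* enhancer bound by GLI1 (chr13:63566294-63566473). That 180-bp enhancer, active in RefSeq's cited reporter assays in brain, spinal cord and notochord of transgenic mice and in cultured fibroblasts, lay wholly within the accessible region. The site in the second sequence lay 5 bp from the upstream RefSeq start of *Ptch1* at position 63573460. The third sequence held no GLI letters and 40 CpG dinucleotides, was 70.3% G or C, and overlapped an exon of A930032L01Rik, a GENCODE transcript of unsettled class on the same strand. No window of the 52 regions held a DR5 or a DR2 element, the direct repeats known as RA response elements, which occurred in 0.141% and 0.254% of all regions. Of all 207 regions with GLI letters that were counted at a timepoint, 52.2% were counted at 0 h only, close to the 49.8% of all counted regions.

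*Ptch1*, the receptor, had 11 regions, and 8 were counted at some timepoint, which here requires a peak in each of its 2 libraries. All 8 were counted at 0 h, 4 at 0 h only, and 1 at all 4 timepoints. The GLI-site region 0.9 kb upstream (chr13:63566219-63566593) had summit values of 214 and 328 (0 h) and no peak at 18, 48 or 120 h. The GLI-site region 8.0 kb upstream (chr13:63573295-63573845) had 93 and 152 (0 h), 47 and 47 (18 h), and no peak at 48 or 120 h. Both GLI-site regions were therefore without a peak from 48 h on, and the one over the annotated enhancer already at 18 h.

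The *Ptch1* region 2.2 kb inside the gene (chr13:63563143-63563607) overlapped another RefSeq element bound by GLI1 by 69 bp. The conserved GLI motif annotated in that element (chr13:63563078-63563086) lay outside the region. The region had 263 and 282 (0 h), 115 in replicate 2 only at 18 h, 69 and 79 (48 h) and no peak at 120 h. Another annotated hedgehog-responsive enhancer (chr13:63568782-63569843) overlapped no peak in any library. The region 6.9 kb upstream had 117 and 160 (0 h) and 70 in 48 h replicate 2, its only later peak. In the introns, the region 23.4 kb from the start had 194 and 91 (0 h), 47 and 46 (18 h), 47 in 48 h replicate 2 and, last, 73 in 120 h replicate 1. The region 29.1 kb from the start had 89 and 61 (0 h) and 45 in 18 h replicate 2. The region 36.6 kb from the start had 187 and 87 (0 h), and its later peaks were 43 in replicate 1 at 18 h and 32 in replicate 1 at 48 h. The remaining 3 *Ptch1* regions had a peak in 1 library each, so none was counted at a timepoint. For 2 of these 3 the only peak came after RA, in 120 h replicate 1. Its value was 110 in the intron region within 1000 bp of the start, and 36 in a region over an exon. The third, downstream of the gene, had 52 in 0 h replicate 1.

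**Figure D1:**
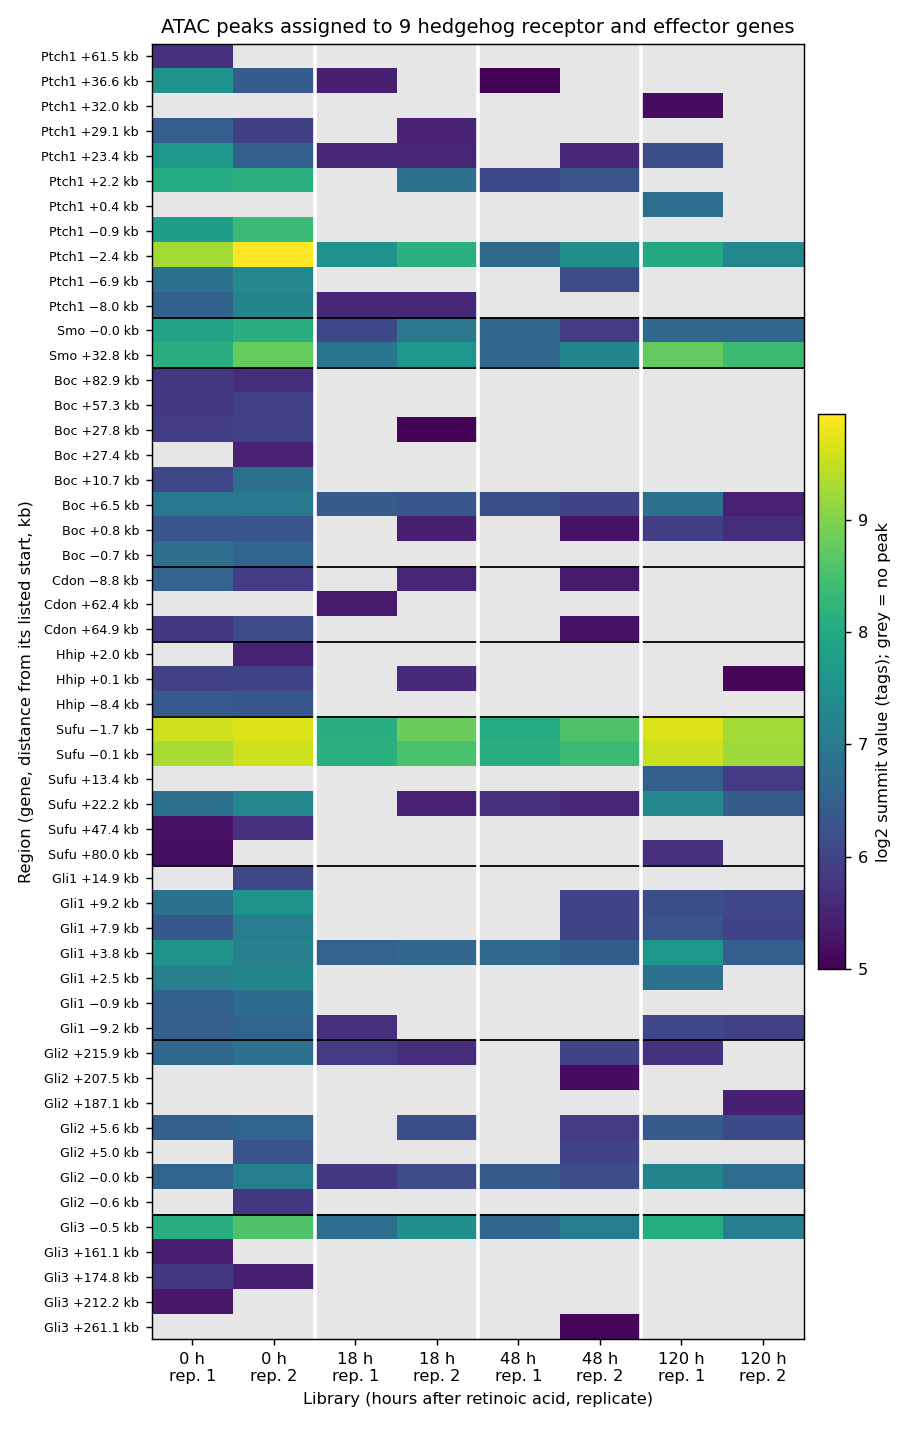
Summit values (log2 of tags, colour) of the 52 regions of the 9 genes in the 8 libraries, with regions named by gene and distance from its listed start in kb and grey where no peak was called. Filled cells thin out after 0 h at Ptch1, Boc and Hhip, whereas the start regions of Smo, Sufu, Gli2 and Gli3 are filled in all 8 libraries.

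The highest *Ptch1* region, 2.4 kb upstream (chr13:63567739-63568322), had a peak in every library. Its summit values were 622 and 982 (0 h), 186 and 284 (18 h), 105 and 177 (48 h), and 252 and 158 (120 h). Both 0 h values lay above all 6 later ones, and the means of the later timepoints were 29.3%, 17.6% and 25.6% of the 0 h mean. In sorted pools, fewer cells with the region open and less opening per cell cannot be told apart. The log2 changes against 0 h were -1.77, -2.52 and -1.97 (SE 0.37, 2 libraries per timepoint). Since heights fell in most regions (median log2 change -1.23, -1.36 and -0.75 over the 15536 regions called in all 8 libraries), changes were also expressed relative to the median region, with each library centred on its own median. On that scale the median change over all regions was 0.03, 0.03 and 0.14. The *Ptch1* region changed by -0.51, -1.13 and -1.08 (SE 0.23), and 4.69%, 0.47% and 5.42% of all 15536 regions fell as far or further. Between 48 and 120 h it differed by 0.55 as deposited (limma, adjusted p = 0.268) and by 0.05 relative to the median region (limma, adjusted p = 0.899). Neither passed, and since the set was chosen on the fall of *Ptch1* after RA, neither is an independent test. For the other genes changes are given as deposited unless stated otherwise, and in 7 of their 8 regions the value at 18 h, below 0 as deposited, lay above 0 relative to the median region.

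The number of peaks per library gave the same picture for *Ptch1*, with 9 and 8 peaks at 0 h, 4 and 5 (18 h), 3 and 4 (48 h), and 4 and 1 (120 h). Summed over the 9 genes there were 40 and 44 peaks at 0 h, 17 and 23 (18 h), 15 and 26 (48 h), and 24 and 22 (120 h). Of the 8 genes other than *Ptch1*, 3 (*Boc*, *Hhip* and *Gli1*) had more peaks in each 0 h library than in any later one, as did 36.9% of all genes with a peak. With 2 libraries against 6, the exact permutation test cannot give a p-value below 0.0714, which these 3 genes reached. With each library cut to its 24643 highest peaks, the number in the library with fewest, *Ptch1* alone still had more peaks in each 0 h library (6 and 5) than in any later one (1 to 4), as did 2.53% of all genes with a peak under that limit.

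**Figure D2:**
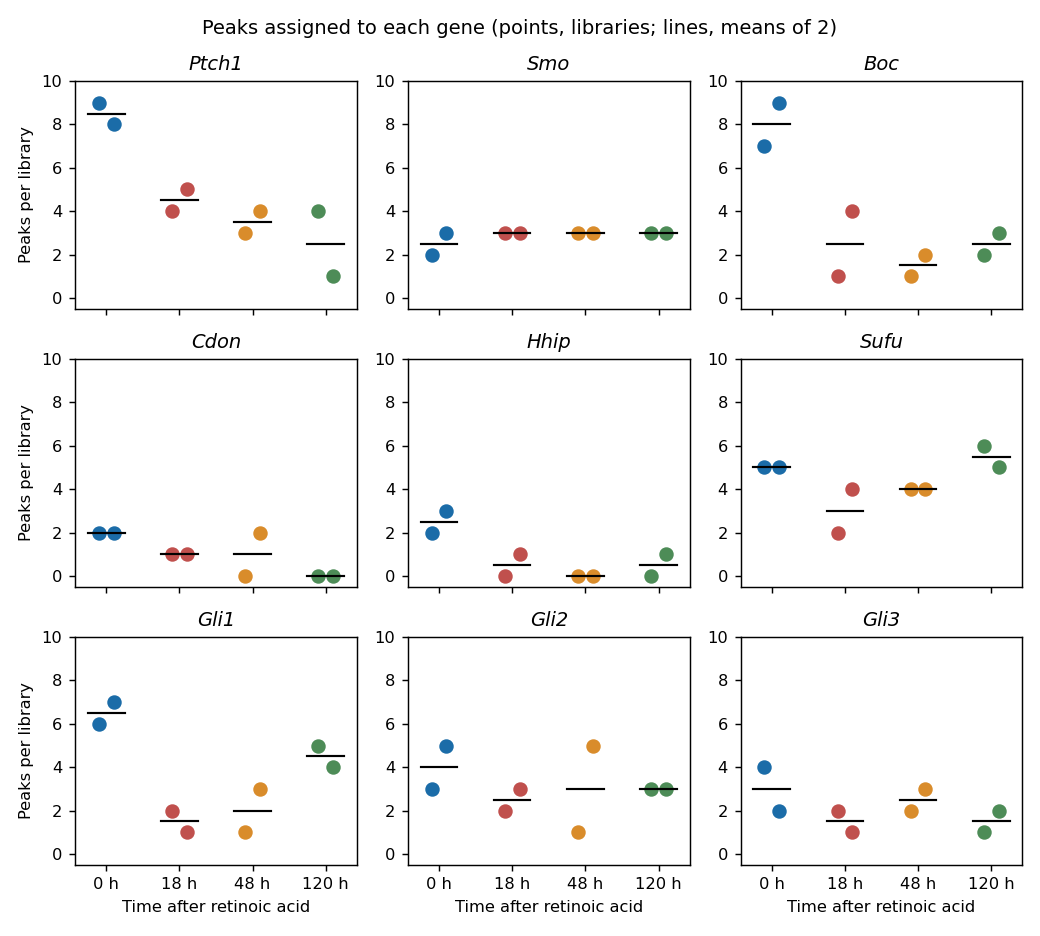
Number of peaks assigned to each gene (vertical axis) in each library (points) by time after RA, with the mean of the 2 libraries as a line. Ptch1, Boc, Hhip and Gli1 have both 0 h points above all 6 later points, whereas Smo has 2 or 3 peaks in every library.

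Of the 52 regions, 37 were counted at 1 timepoint or more. Of these, 17 were counted at 0 h only, against 49.8% of all counted regions, and 9 at all 4 timepoints, against 25.3% of all. *Ptch1*, on which the set was chosen, held 8 of the 37, 4 of the 17 and 1 of the 9. With libraries cut to their 24643 highest peaks, 3 of 20 counted regions were counted at 0 h only, against 9.53% of all regions counted under that limit. Those 3 included the *Ptch1* regions 0.9 and 6.9 kb upstream, so this count is not independent of how the set was chosen. Of the 17 regions, 9 had no peak in any later library, and in the others the later peaks reached at most 117. The 0 h values of the 17 ranged from 38 to 328 with a median of 75.5, whereas the median was 278.5 for the 9 regions seen at all timepoints. Of the 16 regions over a CpG island, 14 were counted, 7 of them at all 4 timepoints and 3 at 0 h only. Of the 36 without an island, 23 were counted, 2 of them at all 4 and 14 only at 0 h. The same contrast held over all regions, where 63.5% of counted regions with an island and 13.7% of those without were counted at all 4 timepoints. Counted at 0 h only were 17.5% of all counted regions with an island and 59.6% of those without.

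*Smo*, the signal transducer that PTCH1 restrains, kept its start region (chr6:29735253-29736584) in every library. Its summit values were 231 and 278 (0 h), 67 and 124 (18 h), 100 and 59 (48 h), and 101 and 101 (120 h). Both 0 h values lay above all later ones and the 120 h values stayed at the level of 18 and 48 h. As deposited the region was lower at 18 h by a log2 change of -1.48 (SE 0.37, limma, adjusted p = 0.000341) and at 120 h by -1.33 (limma, adjusted p = 0.00158). The change at 120 h relative to the median region was -0.44 (SE 0.31, limma, adjusted p = 0.281), which did not pass. It was the one region of the 8 outside *Ptch1* with a fall called at 120 h as deposited, where 44.8% of all regions were called lower. Without 0 h replicate 2 no region was called lower at 120 h, and without 120 h replicate 1 there were 4.

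The other *Smo* region, 32.8 kb downstream of its start and also assigned to *Ahcyl2* (chr6:29767774-29769460), had 278 and 437 (0 h), 122 and 193 (18 h), 101 and 154 (48 h), and 431 and 333 (120 h). Its 120 h values overlapped those at 0 h and lay above all at 18 and 48 h. It was 1.60 higher at 120 than at 48 h on the log2 scale (SE 0.37, limma, adjusted p = 0.00223). Against 0 h it was 1.01 higher relative to the median region at 120 h (SE 0.23, limma, adjusted p = 0.00528), and 0.65 higher with quantile normalization, which did not pass (limma, adjusted p = 0.0614). The difference between the 2 *Smo* regions was not tested, and the distal one cannot be assigned to *Smo* rather than *Ahcyl2* from these data.

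*Boc*, a co-receptor, had 8 regions, and 5 of its 7 counted ones were counted at 0 h only. Its regions from 10.7 kb inside the gene to 0.7 kb upstream were also assigned to *Mir3081*, and the one 82.9 kb from the start to *Wdr52*. *Boc* had 7 and 9 peaks at 0 h, 1 and 4 (18 h), 1 and 2 (48 h), and 2 and 3 (120 h). One 0 h-only region, 57.3 kb inside the gene (chr16:44501305-44502139), had 56 and 63 (0 h) and no later peak, and it overlapped by 88 bp the hedgehog-responsive enhancer that RefSeq annotates in a *Boc* intron. A further one, 27.8 kb inside the gene, lay in a VISTA enhancer active in the embryonic neural tube, with 60 and 62 (0 h) and 33 in 18 h replicate 2. The region 0.7 kb upstream of the start had 114 and 97 (0 h) and no later peak. The region just inside the gene at 0.8 kb had 80 and 78 (0 h), 43 in 18 h replicate 2 and then 38 in 48 h replicate 2, and 61 and 50 (120 h).

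The only *Boc* region seen in every library lay 6.5 kb inside the gene (chr16:44552186-44552637). It had 127 and 128 (0 h), 85 and 81 (18 h), 73 and 65 (48 h), and 115 and 44 (120 h). The 120 h libraries enclosed the later values from both sides. The log2 change was -0.62 at 18 h (SE 0.37, limma, adjusted p = 0.0999) and -0.84 at 120 h (limma, adjusted p = 0.0511). Only the value at 48 h passed (-0.89, limma, adjusted p = 0.0188), and it did not pass when any 1 of the 0 h or 48 h libraries was left out (limma, adjusted p = 0.0579 to 0.103). The changes at 48 and 120 h relative to the median region were 0.50 (limma, adjusted p = 0.329) and 0.05 (limma, adjusted p = 0.897).

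*Cdon*, the other co-receptor, and *Hhip*, the ligand-sequestering protein, had no region with a peak in all 8 libraries. *Hhip* had 2 and 3 peaks at 0 h, 0 and 1 (18 h), none at 48 h, and 0 and 1 (120 h). Its start region (chr8:80057425-80058189) had 63 and 64 (0 h), 48 in 18 h replicate 2 and a last 34 in 120 h replicate 2. The region 8.4 kb upstream had 84 and 81 (0 h) and no later peak. The GLI1-bound enhancer that RefSeq annotates inside *Hhip* (chr8:80055734-80056476) overlapped a region with a single peak, of value 44 in 0 h replicate 2. Across the set, 6 regions overlapped a RefSeq enhancer. Of these, 4 were counted at a timepoint, 3 of them at 0 h only and 1 at 0 and 48 h. Over the genome 55.1% of 207 counted regions that overlapped a RefSeq enhancer were counted at 0 h only.

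*Cdon* had 2 peaks in each 0 h library, and 1 and 1, 0 and 2, and 0 and 0 at 18, 48 and 120 h. Its regions downstream of the gene were also assigned to *Gm1113*. The table placed the *Cdon* start at an internal position, 35452076. The region over the main RefSeq starts (chr9:35420996-35422350) carried no gene in the table, so it was not among the 52, and it was examined after its values were seen. It had a peak in all libraries, with 191 and 239 (0 h), 98 and 141 (18 h), 103 and 109 (48 h), and 191 and 126 (120 h). It was lower at 18 h by a log2 change of -0.86 (SE 0.37, limma, adjusted p = 0.0233) but not past the threshold at 120 h (-0.46, limma, adjusted p = 0.308), and relative to the median region it was above 0 at every timepoint with no call (0.40, 0.38 and 0.43). The low peak counts of *Cdon* do not include this region.

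*Sufu*, the cytoplasmic inhibitor of GLI proteins, had regions with mean values at 0 h (700.5 and 790.5) next to that of *Ptch1* (802) and above it at every later timepoint. The start region (chr19:46396631-46397199) had 637 and 764 (0 h), 283 and 366 (18 h), 279 and 328 (48 h), and 745 and 594 (120 h). The region 1.7 kb upstream (chr19:46395001-46396002) had 768 and 813 (0 h), 277 and 450 (18 h), 264 and 377 (48 h), and 823 and 610 (120 h). In both, the 120 h values overlapped those at 0 h and lay above all values at 18 and 48 h. Both are also assigned to *Actr1a*, the neighbouring gene.

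The *Sufu* start region was lower at 18 h by a log2 change of -1.12 (SE 0.37, limma, adjusted p = 0.00408) and higher at 120 than at 48 h by 1.14 (limma, adjusted p = 0.0197). The upstream region changed by -1.16 (limma, adjusted p = 0.00295) and 1.17 (limma, adjusted p = 0.0177). On the centred scale they stood 0.82 (SE 0.20, limma, adjusted p = 0.00723) and 0.73 (SE 0.21, limma, adjusted p = 0.0172) higher at 120 than at 0 h. With quantile normalization the same changes were 0.28 and 0.19 and neither was called, so their rise relative to other regions rested on the scaling.

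*Sufu* also held the only region of the set counted at 120 h only, against 2.49% of all counted regions. It lay in an intron 13.4 kb from the start (chr19:46410232-46410572), with summit values of 90 and 58 (120 h) and no peak at any other timepoint. Its 300-bp summit window is shown because it is the single region of this class (GRCm38.p6, plus strand, chr19:46410219-46410518).

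Sufu 13.4 kb intron: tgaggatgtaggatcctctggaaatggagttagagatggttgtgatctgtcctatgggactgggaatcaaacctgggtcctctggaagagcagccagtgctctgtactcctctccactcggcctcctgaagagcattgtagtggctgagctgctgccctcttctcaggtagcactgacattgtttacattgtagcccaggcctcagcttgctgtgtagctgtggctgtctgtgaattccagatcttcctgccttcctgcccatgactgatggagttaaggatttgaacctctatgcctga

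The window held no GLI letters and no DR5 or DR2 element, and 48.3% of its bases are masked as repeats in the reference. The *Sufu* intron region 22.2 kb from the start had 115 and 158 (0 h), 44 in 18 h replicate 2, 52 and 46 (48 h), and 161 and 87 (120 h).

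*Gli1*, the GLI factor that is also a target of the pathway, had 7 regions, all of them also assigned to another gene (*Arhgap9*, *Inhbe* or *Inhbc*). It had 6 and 7 peaks at 0 h, 2 and 1 (18 h), 1 and 3 (48 h), and 5 and 4 (120 h). Of its 6 counted regions, 3 were counted at 0 and 120 h but at neither 18 nor 48 h, a pattern of 5 of the 37 counted regions of the set (*Boc* and *Gli2* had 1 each) and of 3.77% of all counted regions. The region over an exon 7.9 kb inside the gene (chr10:127333430-127333846) had 82 and 136 (0 h), 65 in 48 h replicate 2, and 77 and 64 (120 h). The region 9.2 kb inside had 117 and 186, then 64 in 48 h replicate 2, and 73 and 66 (120 h). The region 9.2 kb upstream had 89 and 97, then 51 in 18 h replicate 1, and 66 and 62 (120 h). The 120 h values of all 3 lay below both 0 h values.

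The region 0.9 kb upstream of the *Gli1* start had 93 and 108 (0 h) and no later peak, and after 0 h no peak lay within 1000 bp of the start. The only *Gli1* region seen in all libraries lay 3.8 kb inside the gene (chr10:127337615-127338005), with 186 and 143 (0 h), 95 and 99 (18 h), 103 and 88 (48 h), and 195 and 89 (120 h). It was lower at 18 h by a log2 change of -0.75 (SE 0.37, limma, adjusted p = 0.0473) and did not pass at 120 h (-0.31, limma, adjusted p = 0.512), where the 2 libraries were as far apart as 195 and 89. The call at 18 h was lost when any single library of 0, 18 or 48 h was left out. On the centred scale it stood at 0.58 at 120 h (SE 0.27, limma, adjusted p = 0.0968).

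*Gli2*, the main activator, kept its start region (chr1:119053387-119054016) with 97 and 141 (0 h), 56 and 70 (18 h), 84 and 72 (48 h), and 150 and 109 (120 h). The 120 h values overlapped those at 0 h. As deposited it was lower at 18 h by -0.90 (SE 0.37, limma, adjusted p = 0.0180), and at 120 h it stood at 0.13 (limma, adjusted p = 0.794). Relative to the median region it was higher at 120 h by 1.02 (SE 0.22, limma, adjusted p = 0.00404), and this call also held with quantile normalization (0.99, limma, adjusted p = 0.0132). The intron region 5.6 kb from the start had 90 and 97 (0 h), 73 in 18 h replicate 2, 59 in 48 h replicate 2, and 85 and 69 (120 h).

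*Gli3*, the main repressor, kept its start region (chr13:15462801-15464655) with 279 and 383 (0 h), 111 and 179 (18 h), 100 and 136 (48 h), and 267 and 139 (120 h). Both 0 h values lay above all later ones. The region was lower at 18 h by a log2 change of -1.21 (SE 0.37, limma, adjusted p = 0.00207) and did not pass at 120 h (-0.76, limma, adjusted p = 0.0793). On the centred scale it stood at 0.13 at 120 h (limma, adjusted p = 0.655). The 4 other *Gli3* regions lay far inside the gene with values of 34 to 56, and 1 of them was counted, at 0 h only.

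**Figure D3:**
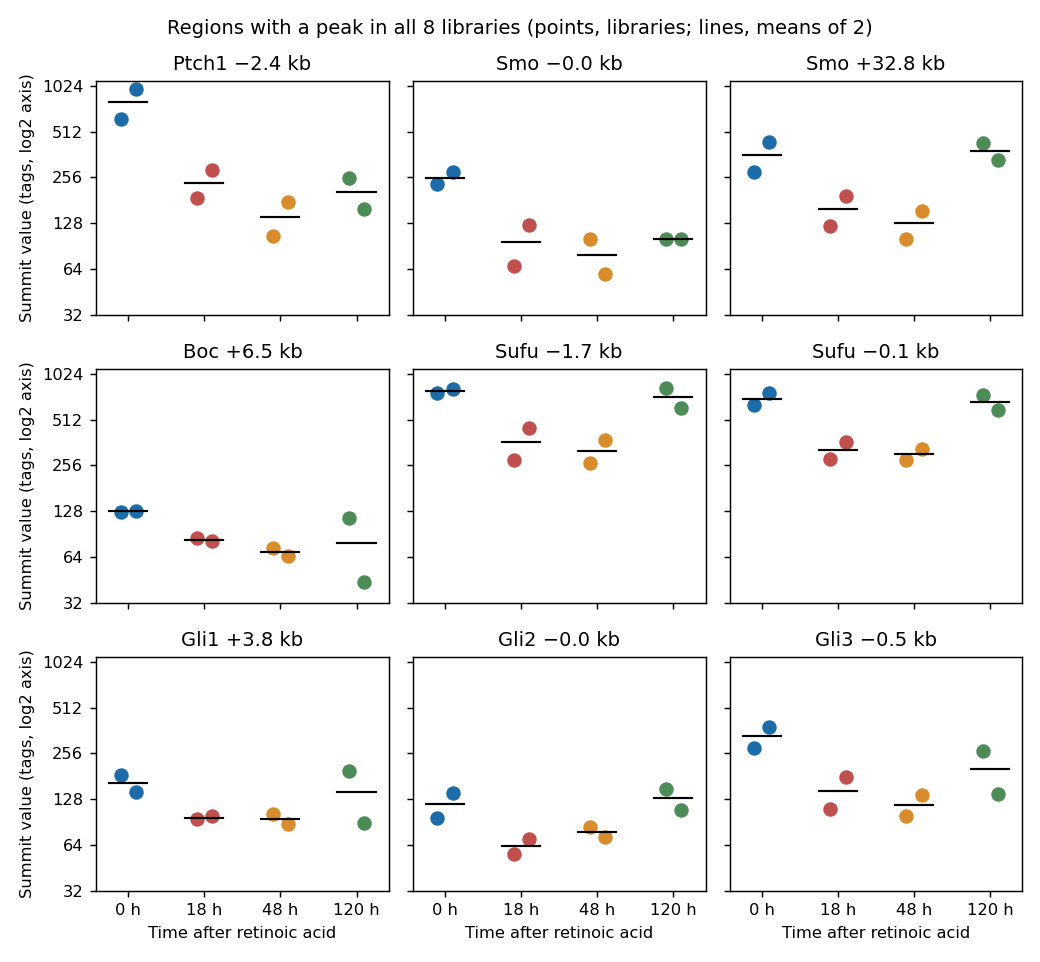
Summit values (tags, log2 axis) of the 9 regions called in every library by time after RA, with libraries as points and the mean of 2 as a line. Ptch1 stays low at 120 h (252 and 158 against 622 and 982 (0 h)). The Smo start, Boc and Gli3 also have 120 h values below both 0 h values. Both Sufu regions, Gli1, Gli2 and the distal Smo region have 120 h values that overlap those at 0 h.

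Taken over the 8 regions outside *Ptch1*, 7 were lower at 18 h and 7 at 48 h as deposited, when 92.3% and 93.3% of all regions were. Relative to the median region none of the 8 was called in either direction at 18 or 48 h (7 and 5 of the 8 lay above 0), when 1.47% and 4.77% of all regions were called lower or higher. The count of 7 at 18 h as deposited fell when 0 h replicate 2 or 18 h replicate 1 was left out, fits that leave 1 library at that timepoint. At 120 h against 0 h, 4 regions were higher relative to the median region (*Smo* distal, both *Sufu* regions and *Gli2*), against 23.0% of all regions, and none was lower, against 15.8%. That count dropped to 2 without 120 h replicate 2, and to 1 (*Gli2*) with quantile normalization.

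At 120 h against 48 h, 3 of all 9 regions (*Smo* distal and both *Sufu* regions) were higher as deposited, against 23.7% of all regions, and the same 3 relative to the median region, against 9.47%. As deposited the count was 0 without 48 h replicate 1, 1 without 48 h replicate 2 or 120 h replicate 1, and 7 without 120 h replicate 2. Relative to the median region it was 1 without either 18 h library, and 0 without either 48 h library, without 120 h replicate 2 or with quantile normalization. Between 18 and 48 h none of the 9 was called (limma, as deposited) and 1 of all 15536 regions was.

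**Figure D4:**
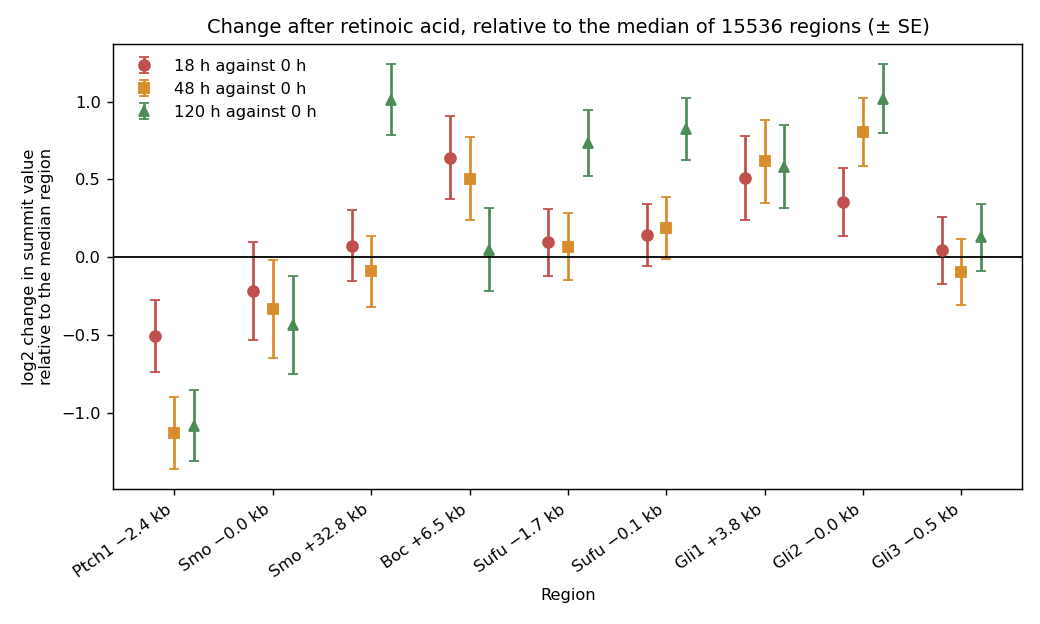
Log2 change in summit value against 0 h, relative to the median of 15536 regions, at 18 h (circles), 48 h (squares) and 120 h (triangles) for the 9 regions, with bars of ± 1 SE. Each library was centred on its own median, and the median change over all regions on this scale was 0.03, 0.03 and 0.14. Ptch1 lies below 0 at all 3 timepoints (-0.51, -1.13 and -1.08), and at 120 h the distal Smo region (1.01), both Sufu regions (0.73 and 0.82) and Gli2 (1.02) lie above 0.

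The other genes of the pathway were taken from a list of 42 ligands, surface proteins, kinases, cilium genes and targets. All 42 had a peak and 32 had a region with a peak in all 8 libraries. As deposited 30 of the 32 were lower at 18 h, 31 at 48 h and 12 at 120 h, when 44.8% of all regions were lower at 120 h, with median log2 changes of -1.15, -1.37 and -0.68, close to those of all regions. Relative to the median region none was called at 18 h. At 48 h *Gas1* was lower (-1.14) and *Ccnd2* higher (1.00), against 4.77% of all regions called either way, and at 120 h 2 were lower and 9 higher, against 15.8% and 23.0% of all regions. The count of 9 was 3 with quantile normalization, 5 when 0 h replicate 2 was left out and 2 when 120 h replicate 2 was.

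The 2 lower genes at 120 h were both surface proteins of the pathway. *Gas1*, a co-receptor like *Boc* and *Cdon*, had start values of 358 and 355 (0 h) and 136 and 56 (120 h) (-1.14 relative to the median region, SE 0.25, limma, adjusted p = 0.00486). *Gpc3*, a glypican that binds ligand, had 204 and 203 (0 h) and 77 and 50 (120 h) (-0.82, SE 0.20, limma, adjusted p = 0.00725). *Gas1* no longer passed without 120 h replicate 2 (-0.82, limma, adjusted p = 0.0572), nor did *Gpc3* without 0 h replicate 1 (-0.68, limma, adjusted p = 0.0615). The largest of the 9 rises were at *Spop* (1.68), *Csnk1a1* (1.24), *Ccnd2* (1.15), *Prkaca* (0.75), *Btrc* (0.72) and *Kif3a* (0.69), which, apart from the target *Ccnd2* and the ciliary motor gene *Kif3a*, act in the phosphorylation and turnover of GLI proteins. The *Spop* value rested in part on 0 h replicate 1, without which it was 1.08, below that of *Csnk1a1* (1.18). Without 120 h replicate 2 only *Spop* (1.41) and *Ccnd2* (1.30) of the 9 still passed.

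Of the 3 ligand genes, *Shh* and *Ihh* had no region in all 8 libraries. At their starts *Shh* had peaks of 98 and 92 and *Ihh* of 78 and 104 (0 h), and the only later one was 66 at *Ihh* in 18 h replicate 2. *Dhh*, the ligand made by Sertoli cells, had start peaks of 84 and 104 (0 h) and none later. Its region away from the start had 306 and 251 (0 h), 145 and 115 (18 h), 73 and 126 (48 h), and 172 and 71 (120 h), and relative to the median region it was not called at 120 h (-0.44, SE 0.30, limma, adjusted p = 0.258).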

How the data were processed

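Chromatin accessibility was measured by ATAC-seq in germ cells sorted by PIWIL2-eGFP, in 2 libraries at each of 4 timepoints. The labels and the methods differ on the number of cells per library. The authors aligned reads to mm10 with BWA 0.7.12, removed duplicates, extended tags, reduced every library to equal tags and called peaks per library with MACS2 2.1.0 without a control. The authors deposited each peak with its summit and mean signal (tag coverage), its assigned genes and its CpG islands. No read counts per region were used here, and depth is known only as this signal.

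Peaks of all libraries overlapping by at least 1 bp were merged, and a timepoint was counted where both libraries had a peak. Heights were log2 summit values of the 15536 regions called in all 8 libraries, compared with limma 3.58.1 in R 4.3.3 (4 groups, no block, Benjamini-Hochberg over all 15536 regions, threshold 0.05), as deposited and centred on each library's median. The fit as deposited shrank all regions to 1 common SE. Peak counts were compared by two-sided exact permutation tests (scipy 1.17.1, Python 3.11.15). The labels and the methods name no pairing of same-numbered libraries, so none was used in the main fit. Sequences, exons and enhancers came from RefSeq GRCm38.p6 and GENCODE. The genes, gene lists and tests were chosen with earlier results of these data known. All 9 genes were named. Of the other pathway genes, up to 6 per direction called relative to the median region, by size, and the 3 ligands were named. Regions most like the *Ptch1* region were the 5 with the highest Pearson correlation of centred heights. Alternatives were other scalings, mean signal, a replicate block, fits of the compared libraries only, an intensity trend, peak filters, overlap of 50%, a peak in either library, and each library left out. After seeing the data, centred fits with mean signal or without each library were added. The browser tracks were not used.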

Additional observations from a re-analysis of the deposited data

How the results depend on the processing

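Each timepoint has 2 libraries, and the height comparison covers only regions that kept a peak in all 8 libraries. Region counts lost at later timepoints depend on a threshold set against equal tags, so a lost peak may be a lower one. Keeping the highest 24643 peaks of each library left 3 regions at 0 h only, regions of *Ptch1* among them, and 1 gene with more peaks in each 0 h library. The 0 h excess for the 9 genes was then 0.333 peaks per library, against 20.8 with all peaks. *Ptch1* alone, on which the set was chosen, had an excess of 3 under that limit, more than the whole sum, and 5 with all peaks. The excess of the 9 genes was 14.8 for peaks inside genes or within 1000 bp of a start. A peak in either library gave 14 regions at all 4 timepoints.

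Centring gave 0 lower regions at 18, 48 and 120 h, with and without the replicate block, and so did quantile normalization, while mean signal gave 2 at 120 h. For 120 against 48 h, quantile normalization gave 0 higher regions on both scales, and 1 for 120 against 0 h relative to the median region. For the other pathway genes centring, with or without the block, gave 0, 1 and 2 lower at 18, 48 and 120 h and quantile normalization 0, 1 and 3. Against 48 h, 5 were higher with centring and 0 with quantile normalization, and relative to the median region quantile normalization gave 3 higher against 0 h and 0 against 48 h. Deviations of same-numbered libraries correlated at -0.224 to 0.249, which cannot decide whether such libraries shared a batch. The block without centring called 6, 6 and 1 regions lower at 18, 48 and 120 h and 3 higher at 120 than at 48 h, against 7, 7, 1 and 3 without it.

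Signs turned with the scaling, and the cause was not tested beyond the shift of the median region. At 18 h, centring, with or without the block, and quantile normalization gave 0.076 and 0.071 for the distal *Smo* region, 0.64 and 0.60 for *Boc*, 0.097 and 0.045 for *Sufu* upstream, 0.14 and 0.10 for its start, 0.51 and 0.51 for *Gli1*, 0.36 and 0.26 for *Gli2*, and 0.046 and 0.043 for *Gli3*. At 48 h they gave 0.50 and 0.41 for *Boc*. At 120 h they gave 0.049 and 0.19 for *Boc*, 0.73 and 0.19 for *Sufu* upstream, 0.82 and 0.28 for its start, 0.58 and 0.59 for *Gli1*, and 0.13 and -0.028 for *Gli3*. Between 48 and 120 h they gave -0.46 and -0.23 for *Boc*, -0.034 and -0.023 for *Gli1*, -0.11 and 0.0069 for the *Smo* start, and quantile normalization gave -0.16 for *Ptch1*. Mean signal gave -0.11 for the distal *Smo* region and 0.15 for *Sufu* upstream at 120 h, and, centred, -0.10 for *Gli3* at 120 h and 0.036, 0.019 and -0.16 for the *Smo* start, *Gli1* and *Gli3* between 48 and 120 h.

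With 1 library left out, lower regions numbered 0 to 7, 5 to 7 and 0 to 4 at 18, 48 and 120 h, and regions higher at 120 than 48 h 0 to 7. Relative to the median region 2 to 5 were higher against 0 h and 0 to 3 against 48 h. For the other pathway genes these ranges were 10 to 31, 19 to 31, 4 to 18, 0 to 19, 2 to 9 and 0 to 5. Regions at 0 h only ranged from 13 to 22. As deposited, changes at 120 h ranged from -0.21 to 0.45 for the distal *Smo* region, -0.37 to 0.059 for *Sufu* upstream, -0.23 to 0.095 for its start, -0.87 to 0.26 for *Gli1* and -0.14 to 0.40 for *Gli2*. Against 48 h they ranged from -0.65 to 0.74 for *Boc* and -0.10 to 1.03 for *Gli1*. Relative to the median region, ranges at 120 h were -0.32 to 0.42 for *Boc* and -0.020 to 0.28 for *Gli3*. Against 48 h they were -0.21 to 0.30 for *Ptch1*, -0.61 to 0.40 for the *Smo* start, -0.28 to 0.21 for *Gli1* and -0.019 to 0.45 for *Gli2*.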

Other observations

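The 5 regions whose centred heights followed the *Ptch1* region 2.4 kb upstream most closely over the 8 libraries were assigned to *1700086L19Rik* (Pearson r = 0.987), *Crispld2* (0.971), *Pbxip1*, *Pygo2* and *Shc1* (0.968), *D630037F22Rik* (0.967) and *Cwf19l2* (0.965). They were picked from 15536 regions as the most alike, so the correlations are a description. The *D630037F22Rik* region had 516 and 726 (0 h), 184 and 229 (18 h), 124 and 173 (48 h), and 233 and 166 (120 h). The *Pygo2* region, over a gene for a Wnt pathway cofactor, had 308 and 471 (0 h), 111 and 146 (18 h), 72 and 91 (48 h), and 151 and 102 (120 h). In both, as at *Ptch1*, the 0 h values lay above all later ones.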
